A study of Arabidopsis thaliana with 27 samples.

Results

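Heat shock factors (HSFs) and heat shock proteins (HSPs) were followed through 48 h of seed imbibition in Arabidopsis thaliana. The set is a fixed list of 42 genes out of 33612 in the count table, made of 21 HSF genes, 14 small HSP genes and 7 other heat shock genes. The last 7 are HSP101, HSP70b, HSP70, HSP90.1, ROF2, HSA32 and MBF1C. Poly(A) RNA was sequenced from seeds of 3 genotypes, Col-0 wild type (WT), the hid1 mutant and the phyB mutant, at 12, 24 and 48 h of darkness. All 27 libraries came from seeds that had dried for 2 months and were given the same light before the dark period, white light for 1 h and then 5 min of red light at 20 μmol per square metre per second, the treatment that activates the photoreceptor phytochrome B. Each of the 9 groups held 3 biological replicates. The phyB seeds are mutant for phytochrome B, a photoreceptor that the red pulse acts on. The hid1 seeds are mutant for the noncoding RNA HID1. The labels name no allele, and whole seeds hold embryo, endosperm and seed coat together. A lower level in whole seeds can come from fewer cells of a type or from less RNA per cell, which cannot be told apart here.

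HSFs are transcription factors that bind heat shock elements, inverted repeats of the bases GAA, and switch on the genes of molecular chaperones. Small HSPs hold unfolding proteins in solution, HSP101 and HSP70 pull aggregates apart and refold their contents, and HSP90 matures client proteins and restrains HSFs. In seeds this system also runs without heat: under the seed regulator ABI3, the seed-specific factor HSFA9 drives small HSPs and HSP101 during maturation, when the embryo prepares for drying, and their transcripts are lost as seeds germinate.

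Totals per library lay between 14750212 and 26293148 counts. HID1 itself had 0 to 1 counts in the 9 hid1 libraries, against 243 to 500 in the 9 WT libraries, and PHYB had 57.9 to 84.4 counts per 1e+06 in phyB against 103 to 145 in WT. Of the 42 genes, 38 passed the filter on low counts, 17 of the 21 HSF genes and all 21 others. The 3 phyB libraries at 12 h stood apart from the other 12 h libraries. Mitochondrial transcripts made up 0.0178% to 0.0202% of their counts, within the 0.0151% to 0.0280% of the 24 h libraries of all genotypes, against 0.0764% to 0.160% in WT and hid1 at 12 h. Ribosomal RNA made up 0.0673% to 0.0796% of their counts, against 0.261% to 0.768% in WT and hid1 at 12 h and 0.0521% to 0.114% in the 24 h libraries. The phyB libraries at 24 h lay within the range of the other 24 h libraries in both shares. Chloroplast transcripts made up 0.0860% to 0.0922% of counts in phyB at 12 h and 0.166% to 0.181% at 24 h. In WT and hid1 they made up 0.311% to 0.375% at 12 h and 0.204% to 0.309% at 24 h. In this share both phyB groups lay below the other genotypes at the same time. The time labels of phyB at 12 and 24 h were used as given. They are in doubt because the 12 h libraries resembled 24 h libraries in the mitochondrial and ribosomal shares. Both phyB groups had such shares, and whether the labels were exchanged was not tested. If they were, every phyB change from 12 to 24 h given here would turn its sign. The comparisons of phyB with WT at 12 and 24 h and the phyB changes from 24 to 48 h would also be altered. The part of these shares in the results was not tested. Comparisons of phyB with WT at 48 h contrast other libraries. The phyB libraries at 12 and 24 h still entered the single fit that gave the 48 h p-values. A fit without them was also run. Levels are given as CPM, counts per 1e+06, on TMM-scaled library sizes. Genes with an adjusted p under 0.05 in edgeR are said to have risen or fallen.

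Summed seed markers moved with the heat shock genes in some comparisons and against them in others. The summed level of 7 seed reserve and drying genes (cruciferins, an albumin, oleosins and EM proteins, which belong to the mature embryo) fell from 50357 to 58513 CPM in WT at 12 h to 6175 to 10696 CPM at 48 h, and lay between 280664 and 325503 CPM in phyB at 48 h. In hid1 at 48 h it lay between 41113 and 52933 CPM. Most of this sum was the cruciferins CRA1 and CRU3, with means of 178055 and 107252 CPM in phyB at 48 h. Not every gene of the list followed it. In phyB 2S albumin 1 had means of 117, 113 and 118 CPM at 12, 24 and 48 h. OLEO2 had means of 2474 CPM at 24 h and 2313 CPM at 48 h there. The 42 heat shock genes summed to 281 to 294 CPM in WT, 456 to 533 CPM in hid1 and 5061 to 6088 CPM in phyB at 48 h. At 12 h in phyB the marker sum was below WT, at 12869 to 14029 CPM. The heat shock genes were above WT, at 3577 to 4530 CPM against 1177 to 2030 CPM. At 24 h in phyB the marker sum was higher than at 12 h, at 64826 to 70914 CPM. The heat shock genes were lower, at 1557 to 1691 CPM. In hid1 at 24 h the marker sum was above WT, at 18807 to 22014 CPM against 8975 to 12258 CPM. The heat shock genes were below WT, at 456 to 500.1 CPM against 618 to 750.4 CPM. A sum of 4 endosperm genes, mostly EPR1, was 757 to 922 CPM in WT and 14217 to 16689 CPM in phyB at 48 h. EXPA2 and MAN7 of this list were lower in phyB than in WT at 48 h. EXPA2 was at 0.342 to 0.753 CPM against 91.3 to 174 CPM, and MAN7 at 19.4 to 21.9 CPM against 27.5 to 35.9 CPM. NCED6 was higher, at 8.06 to 9.26 CPM against 0.311 to 0.406 CPM. The sum of 3 genes of green seedlings was 1383 to 1816 CPM in WT and 7.31 to 9.16 CPM in phyB at 48 h. Of 4 seed coat genes, BAN, TT10, TT12 and TT2, no library held more than 0.274 CPM in all. The part of these shifts in the heat shock results was not tested.

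The stretches upstream of 6 genes were read from the RefSeq annotation of TAIR10.1, to set the letters that HSFs bind beside the levels that follow. The first is upstream of HSFA9 (chr5:21943733-21943982, plus strand), where capitals mark 2 overlapping copies of the RY motif CATGCA, the element read by ABI3 and its relatives. In the other 5 sequences capitals mark pairs of heat shock units, GAANNTTC or TTCNNGAA. These lie upstream of HSP17.4 (chr3:16984868-16985117, minus strand), HSP17.6A (chr5:3884839-3884948, minus strand), HSA32 (chr4:11340112-11340361, plus strand), HSFA2 (chr2:11135466-11135623, plus strand) and HSFA7B (chr3:23398986-23399235, plus strand). Each ends at the base before the annotated gene start, and the stretches of HSP17.6A and HSFA2 stop where a neighbouring gene begins.
HSFA9: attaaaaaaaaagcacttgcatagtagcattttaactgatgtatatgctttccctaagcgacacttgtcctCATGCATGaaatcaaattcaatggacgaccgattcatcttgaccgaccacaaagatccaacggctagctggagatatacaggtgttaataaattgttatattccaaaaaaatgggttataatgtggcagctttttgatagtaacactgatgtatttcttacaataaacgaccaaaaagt
HSP17.4: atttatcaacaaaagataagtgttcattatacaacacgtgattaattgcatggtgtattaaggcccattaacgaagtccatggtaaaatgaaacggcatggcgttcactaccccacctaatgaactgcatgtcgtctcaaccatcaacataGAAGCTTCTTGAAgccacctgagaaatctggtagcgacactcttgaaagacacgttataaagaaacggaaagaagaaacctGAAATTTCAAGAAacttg
HSP17.6A: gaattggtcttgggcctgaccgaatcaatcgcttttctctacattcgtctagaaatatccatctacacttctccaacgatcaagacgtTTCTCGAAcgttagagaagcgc
HSA32: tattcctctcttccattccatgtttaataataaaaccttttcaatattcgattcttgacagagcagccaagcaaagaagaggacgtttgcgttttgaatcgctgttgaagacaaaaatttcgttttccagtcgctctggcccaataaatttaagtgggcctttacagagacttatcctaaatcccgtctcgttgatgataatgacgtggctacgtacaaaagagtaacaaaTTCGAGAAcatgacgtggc
HSFA2: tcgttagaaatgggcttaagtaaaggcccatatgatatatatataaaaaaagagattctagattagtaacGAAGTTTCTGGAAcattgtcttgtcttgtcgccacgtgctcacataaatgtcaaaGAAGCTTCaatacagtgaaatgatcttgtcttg
HSFA7B: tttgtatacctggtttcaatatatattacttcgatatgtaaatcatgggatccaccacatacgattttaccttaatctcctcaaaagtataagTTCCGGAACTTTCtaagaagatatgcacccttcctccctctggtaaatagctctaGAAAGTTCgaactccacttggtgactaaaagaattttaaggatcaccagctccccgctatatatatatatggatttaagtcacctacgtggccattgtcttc

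HSP17.4 carried 4 pairs that join into 2 runs of 3 units, the nearer of them 5 bases from the gene start, and the single pairs of HSP17.6A and HSA32 lay 14 and 11 bases from it. No pair stood in the 250 bases before HSFA9. Over both strands of 250 bases upstream, 12 of the 42 genes (28.6%) held a pair, against 16.1% of 27443 protein-coding genes. A run of 3 units (such a pair with a further inverted unit after any 2 bases, so that it overlaps the pairs) stood upstream of 5 of the 42, HSFA2, HSFA7A, HSFA7B, AT1G53540 and HSP17.4, or 11.9%, against 0.386% of all protein-coding genes. The motif CATGCA, on either strand, stood upstream of 7 of the 42 (16.7%), against 8.43%. By class these were 4 of the 14 small HSPs (28.6%) and 3 of the 21 HSFs (14.3%). The stretch of HSP17.4 holds it on the other strand, as TGCATG, left in lower case above. These are matches of letters in a window and show no binding.

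HSFA9 fell in WT seeds over the time course and, with the time labels as given, built up in phyB seeds. In WT its level was 46.4, 42.2 and 46.7 CPM at 12 h, then 1.67, 2.59 and 1.30 CPM at 24 h and 0.682, 0.760 and 1.17 CPM at 48 h. In hid1 it was 24.1, 22.1 and 22.9 CPM at 12 h, 1.55, 1.97 and 2.44 CPM at 24 h and 3.90, 4.90 and 2.19 CPM at 48 h. In phyB it was 10.97, 11.4 and 10.07 CPM at 12 h, 25.4, 28.4 and 35.5 CPM at 24 h and 113, 102 and 112 CPM at 48 h. The libraries of the 3 genotypes did not overlap at 12 h, where WT was highest, nor at 48 h, where phyB was highest and WT lowest; at 24 h WT and hid1 overlapped and phyB lay above both.

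On the log2 scale HSFA9 fell by 4.59 ± 0.18 (SE) from 12 to 24 h in WT (edgeR adjusted p = 8.63e-18) and by 1.13 ± 0.32 from 24 to 48 h (adjusted p = 0.0022). In phyB it rose by 1.46 ± 0.14 and then by 1.87 ± 0.12, with the 12 and 24 h labels in doubt. In hid1 it fell by 3.54 ± 0.19 to 24 h and then rose by 0.89 ± 0.25 (adjusted p = 0.00295), with hid1 libraries at 24 and 48 h that overlapped. The mutant effect therefore changed sign over time in both mutants: hid1 was 0.97 ± 0.13 below WT at 12 h (adjusted p = 5.39e-06) and 2.11 ± 0.28 above it at 48 h (9.93e-08), and phyB went from 2.06 ± 0.14 below WT at 12 h to 6.99 ± 0.19 above it at 48 h (6.28e-23), a ratio of 127. At 24 h the difference of hid1 from WT was 0.08 ± 0.29 (adjusted p = 0.919), and its sign turned when replicate 3 of either group was left out, to -0.12 without WT and -0.09 without hid1. HSFA9 overlaps AT5G54075 on the opposite strand. Its counts ran at 1.03 times those implied by the authors' deposited FPKM and the transcript length (median over 9 groups).

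**Figure D1:**
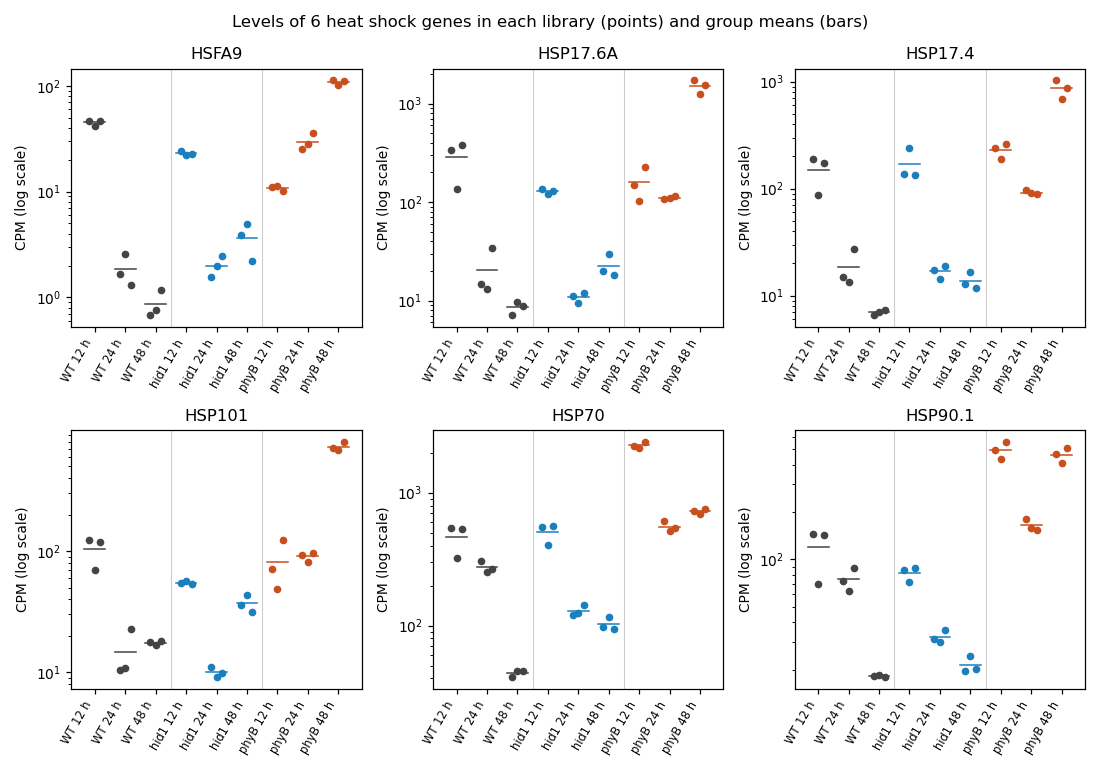
Levels of HSFA9, HSP17.6A, HSP17.4, HSP101, HSP70 and HSP90.1 in each of the 27 libraries, in CPM on a log axis, with 3 points per group and a bar at the group mean. The first 4 genes were highest in phyB at 48 h, where HSP17.6A reached 1259.7 to 1721 CPM, while HSP70 was highest in phyB at 12 h, at 2158 to 2398 CPM.

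In WT most heat shock genes fell over the time course. From 12 to 24 h, 26 of the 38 fell and 3 rose, the latter HSFA1D, HSFA3 and HSFB4, while 65.5% of all 20465 genes passed the test (33.1% rose, 32.4% fell). With scaling by total counts the split was 23 that fell and 9 that rose. The median change of the 38 was -0.89 on the log2 scale, beside 0 for all genes. All 7 other heat shock genes and 11 of 14 small HSPs fell, but only 8 of 17 HSFs. From 24 to 48 h, 22 fell and 7 rose, against 82.3% of all genes passing (44.2% higher, 38% lower). Their median was -0.80, beside 0.07.

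Small HSPs and HSP101 carried the early fall. HSP17.6A, a class II cytosolic small HSP, was at 334, 136 and 380.2 CPM in WT at 12 h and at 14.69, 13.1 and 33.8 CPM at 24 h, a fall of 3.79 ± 0.33 (adjusted p = 6.94e-11). HSP17.4, a class I cytosolic small HSP of seeds, went from 189, 87.1 and 173 CPM to 14.9, 13.3 and 27.5 CPM, a fall of 3.02 ± 0.26 (9.97e-11). Every 12 h library was above every 24 h library for both genes.
HSP22.0, the small HSP of the endoplasmic reticulum, went from 14.9, 9.80 and 14.03 CPM to 0.0491, 0.232 and 0.700 CPM, a change of -5.29 ± 0.37, and of -6.43 without WT replicate 3 at 24 h. HSP23.6-MITO, the mitochondrial form, went from 17.0, 7.92 and 16.2 CPM to 2.11, 1.71 and 2.85 CPM and fell by 2.63 ± 0.31 (2.12e-08). HSP101, the disaggregase, went from 123, 70.1 and 118 CPM to 10.5, 10.7 and 22.9 CPM, a fall of 2.83 ± 0.26 (3.16e-10). None of these groups overlapped.

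HSP70 and HSP90.1, the heat-inducible cytosolic chaperones, fell at both steps. HSP70 held 541, 323 and 531 CPM at 12 h, 304, 251 and 267 CPM at 24 h and 41.1, 45.7 and 45.6 CPM at 48 h in WT, with a fall of 0.76 ± 0.14 and then of 2.63 ± 0.15 (adjusted p = 2.53e-15 for the second). HSP90.1 held 145, 69.4 and 144 CPM at 12 h, 73.1, 63.3 and 88.9 CPM at 24 h and 18.16, 18.4 and 17.97 CPM at 48 h, with a fall of 0.67 ± 0.17 (adjusted p = 0.00111), over which the libraries overlapped, and then of 2.04 ± 0.19 (7.96e-11). HSFA4A, a class A factor linked to oxidative signals, held 16.1, 14.3 and 20.5 CPM at 24 h and 2.94, 2.59 and 3.20 CPM at 48 h, a fall of 2.54 ± 0.17. HSP17.4 fell by a further 1.41 ± 0.30 (adjusted p = 0.000136), and HSP17.6A by 1.26 ± 0.36 (0.00215), though the latter missed the threshold without WT replicate 3 at 24 h (adjusted p = 0.0721).
ROF2, an FKBP-type co-chaperone of HSP90.1, turned the other way, from 2.06, 3.34 and 3.20 CPM at 24 h to 9.55, 10.4 and 10.9 CPM at 48 h, a rise of 1.83 ± 0.23 (3.59e-08). HSFA3, a factor placed downstream of DREB2A, also rose at both steps, from 0.254, 0.0570 and 0.175 CPM at 12 h to 2.51, 3.07 and 2.93 CPM at 48 h.

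**Figure D2:**
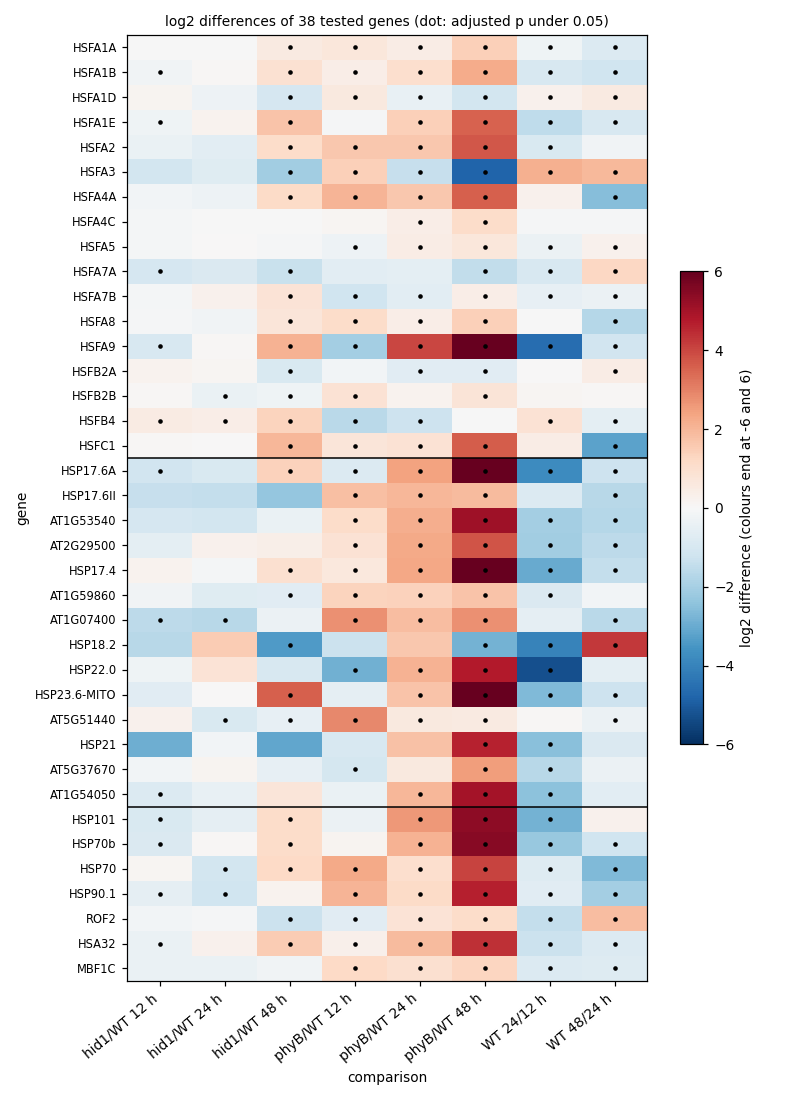
Log2 differences of the 38 tested genes in 8 comparisons, with colour for size and direction, a dot for an adjusted p under 0.05 and lines between HSFs, small HSPs and the 7 others. The columns of WT over time are mostly blue, with 26 falls to 24 h and 22 to 48 h, and the column of phyB at 48 h is mostly red, with 32 rises.

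Both mutants were compared with the same WT libraries. Fewer genes differed in hid1 at 12 and 24 h than at 48 h. At 12 h, 11 of the 38 genes were lower in hid1 than in WT and 1, HSFB4, was higher, while 13.4% of all genes passed the test (7.49% higher, 5.91% lower). The count rested on single libraries: it was 19 without WT replicate 2, 3 without WT replicate 1, and 5 without WT replicate 3, hid1 replicate 1 or hid1 replicate 3. HSFA9 alone of the 12 passed whichever library was left out. WT replicate 2 at 12 h held the lowest WT level for 34 of the 38 genes and 13 of the 14 small HSPs. The small HSPs summed to 295 CPM there and to 673 and 694 CPM in the others. Here and in like counts of replicates below, the share of all genes was not counted. These numbers therefore say nothing particular of the 38.

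HSP17.6A was at 136, 121 and 130.3 CPM in hid1, so that WT replicate 2, at 136 CPM, overlapped it; the difference was -1.13 ± 0.29 (edgeR adjusted p = 0.00792) and missed the threshold without WT replicate 3 (0.0654). HSP101 was at 54.3, 56.8 and 53.3 CPM, below every WT library, with a difference of -0.92 ± 0.24 (0.00866), and at an adjusted p of 0.0537 without WT replicate 1. HSP70b, a heat-inducible HSP70, was at 63.1, 71.8 and 64.4 CPM against 163, 63.9 and 134 CPM in WT, with overlap, a difference of -0.86 ± 0.21 (0.00775), and at 0.0974 without WT replicate 1.
HSP90.1 was at 85.7, 71.8 and 87.8 CPM against 145, 69.4 and 144 CPM, with overlap, a difference of -0.55 ± 0.17 (adjusted p = 0.0308), and above the threshold in 5 of the 6 fits with a library left out. AT1G54050, an HSP20-like chaperone gene with no symbol in the deposited table, was at 9.71, 10.4 and 8.65 CPM against 18.23, 13.0 and 20.1 CPM, with no overlap. Its difference of -0.84 ± 0.28 (0.0466) had an adjusted p of 0.117 in DESeq2 and up to 0.158 with a library left out.

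**Figure D3:**
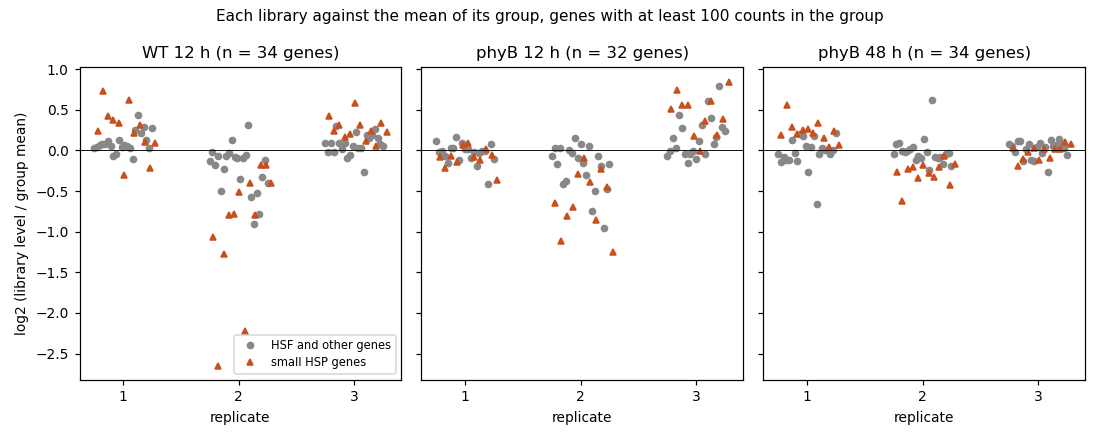
Level of each gene in each library over the mean of its group, on a log2 scale, for WT at 12 h (34 genes), phyB at 12 h (32) and phyB at 48 h (34), for genes with at least 100 counts in the group. Points of replicate 2 lie mostly below 0 in WT and phyB at 12 h. That library was the lowest of its group for 34 and 29 of the 38 tested genes, a share not counted over all genes.

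At 24 h, 5 genes were lower in hid1 and 1 higher, of 38, beside 15.3% of all genes (8.46% higher, 6.87% lower); with scaling by total counts 5 were lower and none higher. Leaving out 1 library gave 3 to 7, the lowest without hid1 replicate 2. HSP90.1 was at 31.3, 29.8 and 35.8 CPM in hid1 against 73.1, 63.3 and 88.9 CPM in WT, a difference of -1.22 ± 0.18 (adjusted p = 1.89e-05). HSP70 was at 121, 125 and 142 CPM against 304, 251 and 267 CPM, a difference of -1.09 ± 0.14 (2.18e-06). The groups were apart for both, and for AT5G51440, an HSP20-like gene without a symbol, at 6.11, 4.64 and 5.86 CPM against 9.98, 11.03 and 10.8 CPM (-0.93 ± 0.13, 1.13e-05).
These 3 passed with any library left out. HSFB4, a class B factor that sets root cell fates, was higher, at 15.3, 15.2 and 11.5 CPM against 9.44, 11.3 and 11.1 CPM (0.40 ± 0.12, adjusted p = 0.023), and lost the call without WT replicate 1 (0.144), hid1 replicate 1 (0.128) or hid1 replicate 2 (0.125).

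By 48 h, 17 genes were higher in hid1 and 9 lower, of 38, but 79.2% of all genes passed the test there (36.3% higher and 43% lower), a larger share than the 68.4% of the 38. The median of the 38 was 0.30, beside -0.06 for all genes. By class, 10 of 17 HSFs were higher and 5 lower, 3 of 14 small HSPs higher and 3 lower, and 4 of the 7 others higher and 1 lower. HSP23.6-MITO was at 12.7, 12.6 and 8.97 CPM in hid1 and at 0.969, 1.14 and 0.677 CPM in WT, a difference of 3.59 ± 0.34 (adjusted p = 2.86e-10) and the largest of the named rises. HSFA1E, of the A1 class that starts the heat response, was at 54.7, 66.9 and 54.2 CPM against 17.404, 17.0 and 20.2 CPM (1.69 ± 0.09, 9.51e-16). In both cases all hid1 libraries were above all WT libraries.
The same held for HSP17.6A, at 20.2, 29.6 and 18.24 CPM against 7.14, 9.74 and 8.76 CPM (1.40 ± 0.35, 0.000751), and for HSP70, at 97.6, 115 and 94.1 CPM against 41.1, 45.7 and 45.6 CPM (1.21 ± 0.14, 1.56e-08). HSFB4 was at 17.7, 18.3 and 17.8 CPM against 6.93, 6.67 and 7.54 CPM (1.35 ± 0.12, 5.92e-11). ROF2 was lower, at 3.82, 4.22 and 4.73 CPM against 9.55, 10.4 and 10.9 CPM (-1.27 ± 0.21, 5.12e-06). HSP101, at 35.9, 43.7 and 31.5 CPM against 17.62, 16.9 and 18.01 CPM, was higher by 1.08.

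Within hid1, 24 genes fell and 2 rose from 12 to 24 h, beside 58.9% of all genes (30% higher, 28.9% lower). HSP22.0 fell by 4.22 ± 0.35, HSP17.6A by 3.57 ± 0.34, HSP17.4 by 3.33 ± 0.27 and HSP101 by 2.45 ± 0.28. AT1G53540, an HSP20-like gene, fell by 2.17 ± 0.52. Libraries did not overlap for any of the 5, which were named for their large changes. The share of all genes without overlap was not counted. From 24 to 48 h the genes no longer moved one way: 10 rose and 12 fell, beside 59.8% of all genes (31.5% higher, 28.4% lower). HSP23.6-MITO rose from 2.42, 1.86 and 2.44 CPM to its 48 h level by 2.35 ± 0.31 (adjusted p = 3.53e-07) and HSP101 from 11.1, 9.16 and 9.90 CPM by 1.88 ± 0.28 (2.26e-06). HSFA1E rose by 0.53 ± 0.08 and HSP17.6A by 1.06 ± 0.35, the latter with an adjusted p of 0.0725 without hid1 replicate 2 at 48 h. HSFA4A fell by 1.06 ± 0.16 and HSP90.1 by 0.59 ± 0.19.
The change in hid1 from 24 to 48 h differed from that in WT for 24 of the 38, with 19 more upward and 5 more downward, beside 62.6% of all genes (30.5% more upward, 32.1% more downward). For the change from 12 to 24 h, 6 of the 38 differed, beside 13.9%, and the number dropped to 3 when either WT replicate 1 or hid1 replicate 2 of the 24 h groups was removed. More upward changes made up 4 of the 6, beside 6.77% of all genes, and more downward ones 2, beside 7.15%.

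In phyB at 12 h, 20 genes were higher than in WT and 8 lower, beside 64.2% of all genes (30% higher, 34.2% lower). Those that rose included HSP70, HSP90.1, HSFA4A and 2 HSP20-like genes. HSP70 was at 2255, 2158 and 2398 CPM in phyB, against 541, 323 and 531 CPM in WT, a difference of 2.29 ± 0.14 (adjusted p = 7.65e-14). AT5G51440 was at 75.0, 63.5 and 84.5 CPM against 10.8, 8.83 and 10.4 CPM (2.89 ± 0.11, 1.71e-18). HSFA4A was at 59.3, 45.0 and 70.6 CPM against 15.2, 12.0 and 14.9 CPM (2.05 ± 0.13, 2.36e-13). The groups were apart for all 3.
AT1G07400, an HSP20-like gene, was at 35.6, 28.7 and 48.4 CPM against 8.58, 1.20 and 6.90 CPM (2.74 ± 0.30, 8.57e-09). HSP90.1 was at 494, 434 and 556 CPM against 145, 69.4 and 144 CPM, 2.05 higher. HSP22.0 went the other way with HSFA9, at 1.63, 0.861 and 2.79 CPM against 14.9, 9.80 and 14.03 CPM (-2.87 ± 0.29, 1.42e-09). HSP101, at 71.1, 48.2 and 123 CPM, overlapped WT and did not pass (-0.36). HSP17.6A, also overlapping, was 0.83 lower and passed, though not in every alternative fit. Of the 28 calls, 21 held with any 1 library left out, and the count lay between 24 and 30.

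At 24 h in phyB, 28 were higher and 5 lower, beside 66.4% of all genes (31.8% higher, 34.6% lower), and the median of the 38 was 1.25, beside 0. All 7 other heat shock genes and 11 of 14 small HSPs were higher. HSP101 was at 92.1, 81.8 and 96.9 CPM against 10.5, 10.7 and 22.9 CPM in WT (2.62 ± 0.26, adjusted p = 1.23e-09). HSP17.6A was at 106, 109.8 and 116 CPM against 14.69, 13.1 and 33.8 CPM (2.44 ± 0.32, 1.49e-07), and HSP17.4 at 96.4, 90.8 and 88.4 CPM against 14.9, 13.3 and 27.5 CPM (2.31 ± 0.26, 1.35e-08). The phyB libraries were above all WT libraries for each of them.
AT2G29500, an HSP20-like gene, was at 29.5, 30.8 and 25.3 CPM against 3.73, 4.12 and 9.70 CPM (2.29 ± 0.30, adjusted p = 1.39e-07). AT1G53540 was at 23.8, 21.9 and 19.1 CPM against 2.56, 1.81 and 10.3 CPM (2.16 ± 0.42, 4.83e-05), and at 3.31 without WT replicate 3, the highest WT library at 24 h for 12 of the 14 small HSPs. The ratio for HSFA9 was 15.9, a difference of 3.99 ± 0.19 (2.07e-16).

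At 48 h, 32 were higher in phyB and 5 lower, beside 89.4% of all genes (40% higher, 49.4% lower), and the median of the 38 was 2.62, beside -0.24 for all genes. With scaling by total counts 27 were higher and 7 lower, and the medians were 1.95 and -0.92. HSP17.6A was at 1721, 1259.7 and 1542 CPM in phyB, and at 7.14, 9.74 and 8.76 CPM in WT, a ratio of 176 and a log2 difference of 7.46 ± 0.38 (adjusted p = 1.39e-16). HSP17.4 was at 1029.9, 682 and 878 CPM against 6.60, 7.05 and 7.31 CPM, a ratio of 124 (6.95 ± 0.31, 5.71e-18). HSP23.6-MITO was at 84.7, 66.0 and 77.1 CPM against 0.969, 1.14 and 0.677 CPM, a ratio of 79.6 (6.32 ± 0.30, 2.02e-17). No phyB library came near a WT library for these small HSPs.
HSP70b was at 483, 445 and 492 CPM against 11.4, 9.85 and 10.9 CPM (5.46 ± 0.26, 2.33e-17) and HSP101 at 701, 683 and 790.1 CPM against 17.62, 16.9 and 18.01 CPM (5.37 ± 0.27, 1.13e-16). The ratios were 44.1 and 41.5. Scaling by total counts lowered the log2 difference of each of the 37 called genes, so that ratios move by over 1.5 times: it gave 6.78 for HSP17.6A, 6.32 for HSFA9, 6.27 for HSP17.4, 5.64 for HSP23.6-MITO, 4.78 for HSP70b and 4.69 for HSP101. HSA32, a protein of acquired heat tolerance, was at 57.8, 56.2 and 59.0 CPM against 2.55, 2.97 and 2.66 CPM, 4.40 higher; its transcript shares 4.98% of its 50-base windows with other genes, and AT4G21323 overlaps it on the same strand.

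Few heat shock genes were lower in phyB at 48 h. Besides HSFA1D, HSFA7A and HSFB2A, which differed by -1.09, -1.48 and -0.68, they were HSFA3 and HSP18.2. HSFA3 was at 0.137, 0.0753 and 0.0696 CPM against 2.51, 3.07 and 2.93 CPM in WT, and HSP18.2, a class I small HSP, at 0.205, 0.151 and 0.0696 CPM against 0.789, 1.17 and 1.17 CPM. In hid1 at 48 h both were also lower than in WT, by 2.11 and 3.39 on the log2 scale. HSFB4 alone did not pass in phyB at 48 h, at 7.73, 5.80 and 7.03 CPM against 6.93, 6.67 and 7.54 CPM (-0.03). Among the 12 genes with a pair of heat shock units upstream, 11 were higher in phyB at 48 h and 1 lower, with a median of 3.65; among the 26 without, 21 were higher and 4 lower, with a median of 1.80, beside 40% of all genes higher. At 12 h in phyB the medians lay the other way, at 0.12 for the 12 genes (6 higher, 3 lower) and 0.48 for the 26 (14 higher, 5 lower), beside 30% of all genes higher. The split by motif was not tested.

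Within phyB the genes split by time. From 12 to 24 h, 16 fell and 5 rose, beside 54.9% of all genes (27.2% lower, 27.7% higher). HSP70 fell to 609, 512 and 542 CPM, by 2.03 ± 0.14 (adjusted p = 1.26e-12), HSP90.1 to 182, 158 and 154 CPM, by 1.58 ± 0.17 (5.54e-09), and AT5G51440 to 18.01, 14.6 and 14.5 CPM, by 2.24 ± 0.10 (3.8e-16). HSP17.4 fell from 240.1, 188 and 261 CPM by 1.32 ± 0.24 and AT1G07400 by 1.42 ± 0.27. All the 12 h libraries were above all the 24 h libraries for these 5, which were named for their large changes. The share of all genes without overlap was not counted.

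From 24 to 48 h, 23 rose and 6 fell, beside 61.7% of all genes (31% higher, 30.8% lower); with scaling by total counts 16 rose and 11 fell. HSP17.6A rose by 3.77 ± 0.31 (adjusted p = 3.08e-11), HSP23.6-MITO from 6.52, 8.59 and 6.77 CPM by 3.38 ± 0.23 (1.01e-12), and HSP17.4 by 3.23 ± 0.25 (7.92e-12). HSP101 rose by 3.01 ± 0.24, AT1G54050 from 11.5, 13.4 and 12.6 CPM to 68.0, 57.4 and 68.6 CPM by 2.37 ± 0.26, and HSP70b from 117, 103 and 99.4 CPM by 2.15 ± 0.21. The 24 and 48 h libraries did not overlap for any of the 6. These were named for their large changes, and the share of all genes without overlap was not counted. At 48 h replicate 1 held the highest of the 3 levels for 13 of the 14 small HSPs and replicate 2 the lowest for 13. Such shares were not counted over all genes.

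These changes differed from those in WT. From 12 to 24 h the change in phyB differed from that in WT for 25 of the 38, 16 more upward and 9 more downward, beside 61.5% of all genes (30.3% more upward, 31.3% more downward), and from 24 to 48 h for 28, 25 more upward and 3 more downward, beside 71.9% (35.4% more upward, 36.5% more downward). With scaling by total counts the latter split was 22 and 6. Over all 9 groups, 17 of the 38 were highest in phyB at 48 h, among them 7 small HSPs and 6 HSFs, and 13 of these were above every library of the other groups. A further 12 were highest in phyB at 12 h, 8 of them above every other library, including HSP70, AT5G51440 and AT1G07400. The shares of all genes that were highest in each group were not counted, so these numbers say nothing particular of the 38.
HSP22.0 was highest in WT at 12 h, and 5, HSFA1D, HSFA3, HSFA7A, HSFB2A and HSP18.2, were highest in WT at 48 h.

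**Figure D4:**
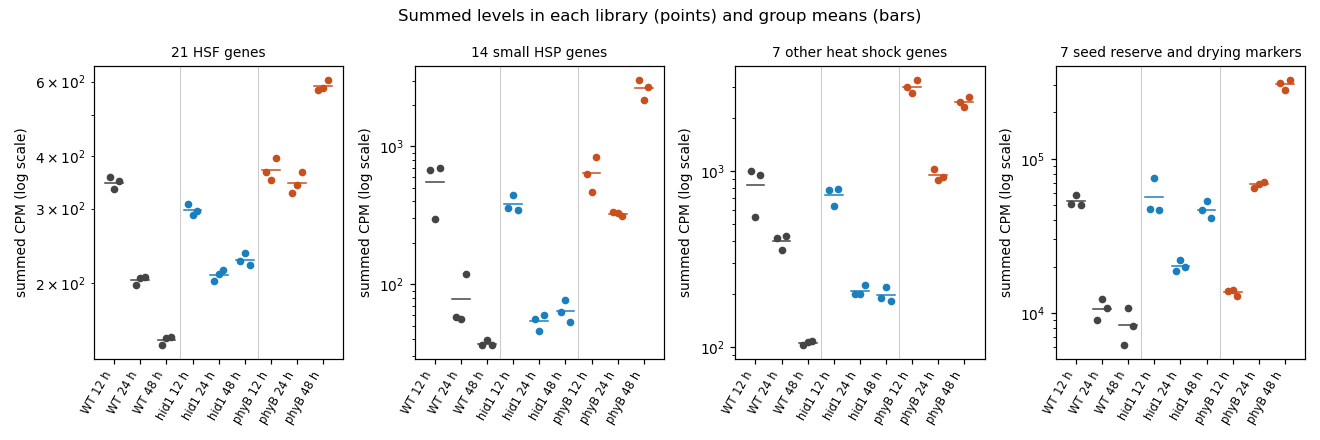
Summed CPM of the 21 HSF genes, the 14 small HSP genes, the 7 other heat shock genes and the 7 seed reserve and drying markers in each library, on log axes, with a bar at the group mean. Small HSPs summed to 2171 to 3052 CPM in phyB at 48 h and to 36.0 to 39.1 CPM in WT. The sum of the seed markers in phyB was lower at 12 h than at 24 h.

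Summed over the 14 small HSPs, phyB held 465 to 837 CPM at 12 h, 312 to 333 CPM at 24 h and 2171 to 3052 CPM at 48 h. HSP17.6A and HSP17.4 made up most of it at 48 h: the other 12 summed to 229 to 301 CPM there, against 175 to 351 CPM at 12 h. The 21 HSF genes summed to 333 to 356 CPM in WT at 12 h and 142 to 149 CPM at 48 h, and to 573 to 607 CPM in phyB at 48 h. In the authors' deposited FPKM, which allow levels of different genes to be compared, HSP17.6A ranked first of the 42 in WT at 12 h with 414 and in phyB at 48 h with 1629.6. HSP70 ranked first in phyB at 12 h with 1013. In WT at 48 h the first was HSFA7B, at 36.3.

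The class A1 factors, which start the heat response and act together, moved in both directions. HSFA1E was at 191, 207 and 225 CPM in phyB at 48 h, against 17.404, 17.0 and 20.2 CPM in WT (3.52 higher). HSFA1B was 2.24 higher and HSFA1A 1.41 higher, while HSFA1D was 1.09 lower. HSFA2, which prolongs the response and carries 3 pairs of heat shock units in the sequence shown above, was at 41.8, 44.9 and 49.4 CPM against 2.94, 3.28 and 4.24 CPM, 3.72 higher. HSFA7B also carries 3 pairs, and its level ranged from 22.7 CPM in phyB at 12 h to 62.1 CPM in WT at 12 h over all 27 libraries. It was 1.19 lower in phyB at 12 h and 0.42 higher at 48 h, where scaling by total counts gave -0.26. The class B factors lack the activation domain of class A: HSFB2A differed by -0.68 in phyB at 48 h and HSFB2B by 0.79, or by 0.11 with scaling by total counts (adjusted p = 0.349). MBF1C, a coactivator of the heat response, was highest in phyB at 12 h, with 14.4, 13.7 and 18.1 CPM.

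The remaining genes were low or changed less. HSFA8 was at 22.8, 20.1 and 21.3 CPM in phyB at 12 h against 10.8, 9.34 and 9.47 CPM in WT (1.11 ± 0.10, adjusted p = 3.57e-10), above every other library. HSFA4C was highest in phyB at 48 h, at 16.9, 17.5 and 17.5 CPM against 7.86, 8.57 and 7.99 CPM, and lay between 7.38 and 11.4 CPM in all but 1 of the other libraries. HSFA5, which is known to restrain HSFA4, was at 18.7, 21.2 and 21.8 CPM there against 13.3, 13.9 and 11.4 CPM (0.67 ± 0.09), and scaling by total counts gave -0.01. HSFA7A reached 2.25 CPM at most.
The class II small HSP HSP17.6II followed the 12 h pattern, at 17.43, 9.41 and 34.1 CPM in phyB against 9.50, 0.911 and 6.72 CPM in WT (1.81 ± 0.45, 0.000864), with groups that overlapped at 9.41 and 9.50 CPM. AT1G59860 was at 7.97, 7.004 and 7.45 CPM against 2.44, 2.11 and 4.50 CPM (1.32 ± 0.22). AT5G37670 followed the 48 h pattern, at 12.2, 7.76 and 11.2 CPM in phyB against 1.69, 2.11 and 1.63 CPM (2.52 ± 0.22). HSP21, the plastid small HSP, reached 1.98, 0.828 and 1.32 CPM in phyB at 48 h and was at 0 in all 3 hid1 libraries.

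HSF genes that could not be judged from the counts were HSFB1, HSFC1, HSFA6A, HSFA6B and HSFB3. HSFB1, a class B repressor also named HSF4 (AT4G36990), was listed at 0 counts in all 27 libraries, yet the authors' deposited FPKM table gave it 5.74, 26.7 and 13.3 in WT at 12, 24 and 48 h. The same table gave 7.24, 24.6 and 10.2 in hid1 and 31.0, 19.6 and 7.83 in phyB. Of 2362 protein-coding genes at 0 in the count table, 92 had an FPKM of at least 1 in some group. HSFC1, the single class C factor, overlaps AT3G24518 on the opposite strand. Its counts ran at 0.0289 to 0.119 of those implied by FPKM and length, while medians for 38 other genes lay between 0.603 and 1.21. At 12 h its counts were higher in phyB than in WT by 0.75, but the authors' deposited FPKM was 26.8 in phyB and 54.7 in WT, so its calls are uncertain. HSFA6A, HSFA6B and HSFB3 had 2, 59 and 4 counts in all 27 libraries together.

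Of 30 genes of the same pathway outside the list, 28 were tested. At 48 h in phyB, 11 were higher and 15 lower, shares near the 40% and 49.4% of all genes, and their median was -0.47. ABI3, the regulator placed above HSFA9, was at 727, 789 and 840.4 CPM against 52.7, 56.0 and 61.7 CPM in WT (3.79 ± 0.08, adjusted p = 1.54e-24), and in hid1 at 423, 429 and 436 CPM (2.92 ± 0.08 above WT, 1.93e-21). GOLS1, a galactinol synthase under HSF control, was at 381, 351 and 382 CPM against 6.35, 10.5 and 9.48 CPM (5.41 ± 0.12). CLPB4, the mitochondrial relative of HSP101, was at 203, 210.0 and 238 CPM against 24.0, 24.8 and 27.3 CPM (3.10 ± 0.07). For all 3 the phyB libraries were above all WT libraries.
The plastid chaperone cpHSC70-2 was lower, at 37.8, 36.7 and 38.9 CPM against 165, 200.4 and 194 CPM (-2.30 ± 0.06). At 12 h in phyB, 16 of the 28 were higher and 7 lower, beside 30% and 34.2% of all genes, and the HSP70 relatives HSC70-3 and HSP70-2 had the smallest p-values. HSC70-3 was at 2334, 2127 and 2468 CPM against 133, 66.0 and 126 CPM (4.41 ± 0.19, adjusted p = 2.08e-17) and HSP70-2 at 224, 219 and 223 CPM against 17.7, 11.8 and 18.8 CPM (3.78 ± 0.17). At 24 h in phyB 10 were higher and 15 lower, beside 31.8% and 34.6%. In hid1 the counts were 11 higher and 3 lower at 12 h, beside 7.49% and 5.91% of all genes. At 24 h they were 3 and 7, beside 8.46% and 6.87%, and at 48 h 10 and 9, beside 36.3% and 43%.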

How the data were processed

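RNA-seq of seeds was deposited as a table of whole-number counts per gene for the 27 libraries and a table of FPKM with 1 mean per group, both made by the authors. Libraries were poly(A)-selected and read as 150 bp pairs, per the labels' protocols. The submitters' processing notes name fastp, HISAT2 2.1.0, SAMtools 1.6 and the TAIR10 build; the counting tool, its strand setting and its use of reads that map to several genes were not given in the sources used here, so calls for genes that overlap another gene (HSFA1B, HSFA3, HSFA9, HSFB2B, HSFC1, HSP17.4, HSP101, HSA32 and MBF1C) are uncertain.

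From the deposited counts, genes passing filterByExpr (20465 of 33612, of which 5633 had no count) were scaled by TMM and tested with the quasi-likelihood test of edgeR 4.0.16 (limma 3.58.1, R 4.3.3), in 1 fit over all 9 groups with 18 residual degrees of freedom. P-values were adjusted by Benjamini-Hochberg over all tested genes in each of 16 comparisons, and called under 0.05. CPM use the TMM-scaled sizes, and log2 differences are the fitted ones. Replicates are biological per the labels; totals of 14750212 to 26293148 counts set the counting precision. The 3 libraries of a group were compared in 27 pairs and differed by 2.04 to 19.6 times the counting noise (chi-square over degrees of freedom), so none was a repeat. The test was checked on simulated counts of a pair of groups, with few changed genes and the same spread for every gene. That check does not cover the wide shifts between the groups here.

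The deposited FPKM served to compare levels between genes. Upstream sequences and positions come from RefSeq's TAIR10.1, matched by locus tag for all 42 genes. HSFA9 and, per comparison, the 6 called genes of largest change with a mean of at least 10 CPM in the higher group were named by a written rule, as were the 4 pathway genes of smallest p; the other genes were described after their values were seen. The members and lists were chosen with earlier results of these data known. Alternatives were DESeq2 1.42.0, its size factors, total-count scaling, no filter, a replicate block, the fit without the 6 phyB libraries at 12 and 24 h, and each library left out.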

Additional observations from a re-analysis of the deposited data

Results flagged for a closer look

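Changes over time that differed between a mutant and WT were tested as an interaction in the same edgeR fit, on the log2 scale, where a positive value means a change more upward in the mutant. No explanation was weighed. Groups of 3 libraries are too small for a test of single outlying libraries.

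From 12 to 24 h, 6 of the 38 genes differed between hid1 and WT, beside 13.9% of all genes. As for the other 3 such counts below, the share is close to that of all genes, so the totals say nothing particular of the 38. By direction, 19 were more upward and 5 more downward in hid1 from 24 to 48 h, beside 30.5% and 32.1% of all genes. In phyB they were 25 and 3, beside 35.4% and 36.5%, a split that depended on the scaling as given above. From 12 to 24 h they were 4 and 2 in hid1 and 16 and 9 in phyB. In hid1 from 12 to 24 h the values were 1.05 for HSFA9, 0.43 for HSFA1E, 0.27 for HSFA1B, 0.68 for HSA32 and -1.21 for both HSP70 and AT5G51440. HSFA9 and HSFA1B missed the threshold with some single libraries left out, at adjusted p up to 0.121 for HSFA9. From 24 to 48 h, 24 differed, beside 62.6% of all genes. HSP23.6-MITO had the largest value among those named, 3.57, followed by 2.32 for HSP17.6A, 2.30 for HSP70, 2.03 for HSFA9, 1.62 for HSP101, 1.50 for HSFA1E and 1.48 for HSFA4A.

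In phyB 25 differed from WT from 12 to 24 h, beside 61.5% of all genes. The values of this step, and those from 24 to 48 h, rest on time labels in doubt. From 12 to 24 h HSFA9, which fell in WT and rose in phyB, had 6.05. HSP17.6A had 3.27, HSP101 2.98, AT1G54050 2.36 and HSP70b 1.95, while AT5G51440 had -2.32. For AT1G54050 the value was 3.12 without phyB replicate 3 at 12 h. From 24 to 48 h 28 differed, beside 71.9% of all genes, with 5.03 for HSP17.6A, 4.64 for HSP17.4, 4.60 for HSP23.6-MITO, 3.53 for HSP90.1, 3.37 for HSP70b, 3.02 for AT1G54050 and 3.01 for HSFA9.

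HSFB1 had a mean of up to 31.0 FPKM in the authors' deposited table, in phyB at 12 h, and 0 counts in every library of the count table.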

How the results depend on the processing

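The number of the 38 genes called was within 1.5 times its main value in all 16 comparisons under DESeq2, its size factors, total-count scaling, no filter on low counts, the replicate block and, where it applied, the fit without the phyB libraries at 12 and 24 h. With 1 library left out it ran from 3 to 19 for hid1 against WT at 12 h (12 with all), from 3 to 7 at 24 h (6 with all), and from 3 to 7 for the change from 12 to 24 h in hid1 against WT (6 with all). The same range was 24 to 30 for phyB at 12 h, 32 to 34 at 24 h and 36 to 37 at 48 h. Scaling by total counts moved the median of all genes from -0.24 to -0.92 for phyB against WT at 48 h, from 0 to -0.23 at 24 h, from 0 to -0.46 for phyB from 24 to 48 h, and from 0 to 0.26 and 0.24 for WT and hid1 from 12 to 24 h. It turned the sign of HSFA5 (-0.00968), HSFA7B (-0.26) and AT5G51440 (-0.12) in phyB at 48 h, of HSFB2A (-0.0201) and HSP70 (-0.11) in phyB from 24 to 48 h, of HSFA1A (0.00165) in WT and of HSFA5 (0.00833) in hid1 from 12 to 24 h; total-count scaling uses no TMM factor, which was 0.684 to 0.729 in phyB at 48 h. HSFA9 in hid1 at 24 h, not called, ran from -0.12 to 0.41 with 1 library left out, and was -0.12 and -0.09 without replicate 3 of WT or of hid1. The labels state no pairing by replicate number. In the data 9 of 108 same-numbered pairs deviated together with a correlation over 0.1. The mean correlation was 0.0234 for same-numbered pairs and -0.0116 for others. Yet 19 of 27 libraries correlated best with their own number, a hint from the data and not the design. With the number as a block, 15 genes were called in hid1 at 12 h, 29 in phyB at 12 h and 34 at 24 h, and no call of the 38 was lost. Depth limits HSFA3, HSFA7A, HSP18.2 and HSP21, which stayed under 4 CPM.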
